A study of Mus musculus with 5 samples.

Results

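Cadherins are adhesion proteins of the cell surface whose extracellular repeats bind calcium, and they let developing neurons sort, extend processes and form synapses. This account covers NEUROD2 binding at 34 mouse genes of the cadherin superfamily, out of 21938 protein-coding genes in the annotation. The genes were taken from a list of names by family and not by a measured value, although the list was drawn up with earlier results of these data known. They are the classical cadherins of type I (Cdh2 and Cdh4) and type II (Cdh6, Cdh7, Cdh8, Cdh9, Cdh10, Cdh11, Cdh12, Cdh18, Cdh20 and Cdh22), the membrane-anchored Cdh13, 11 protocadherins outside the clustered locus, 3 Flamingo genes (Celsr1, Celsr2 and Celsr3), 5 Fat and Dachsous genes, and the neuronal catenins Ctnna2 and Ctnnd2. Each gene was described by the peaks that overlapped its gene body or the 10 kb on either side.

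NEUROD2 is a neurogenic basic helix-loop-helix transcription factor of cortical excitatory neurons. Its binding was profiled by chromatin immunoprecipitation with sequencing (ChIP-Seq), which recovers and sequences the DNA fragments bound by a protein, in the cerebral cortex of BALB/c pups at postnatal day 0. According to the methods, the tissue of 5 littermates was pooled, and 1 library was made with each of 3 NEUROD2 antibodies, numbered 1 (ab168932), 2 (ab104430) and 3 (catalogue name ab109406) in the labels, while a precipitation with an antibody against GFP served as control for peak calling. The animals carried no labelled mutation or treatment, and all samples came from the whole cortex and not from sorted cells. The methods describe 1 pool of animals, but also call the 3 NEUROD2 experiments independent. They do not state outright whether the antibodies were used on 1 pool or on several, so the spread between antibodies may be technical.

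The classical cadherins bind the same kind of cadherin on the neighbouring cell, and their cytoplasmic tails hold catenins, which link the contact to actin. Protocadherins have other tails and weaker adhesion, the Flamingo proteins are cadherins with a receptor-like membrane domain that polarise cells and guide axons, and the giant Fat proteins bind Dachsous proteins across cell borders. In the cortex, N-cadherin (Cdh2) holds the neuroepithelium together and later takes part in neuronal migration and synapses. Bound bHLH dimers recognise the E-box, the 6 bases CANNTG, and the NeuroD proteins are best known for the forms CAGATG and CAGCTG.

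At 7 of these genes, every antibody found NEUROD2 at the same site. The authors' table of shared sites, which are stretches with a peak of each of the 3 antibodies, held 10 sites at Fat3 (3 sites), Pcdh15 (2 sites), Cdh2, Cdh13, Pcdh7, Ctnna2 and Ctnnd2 (1 site each). To show what was bound, the central 200 bp of 7 of the sites are printed here in the order of their scores, on the plus strand of GRCm38 (mm10) and from 5′ to 3′, with every E-box in capitals. The Ctnna2 sequence is cut to 94 bp to leave out the untranslated part of the first exon. The last sequence is the region of Celsr2 that antibodies 1 and 2 shared, chosen after its values were seen because it scored highest among the genes without a shared site.
Cdh13, chr8:119158748-119158947: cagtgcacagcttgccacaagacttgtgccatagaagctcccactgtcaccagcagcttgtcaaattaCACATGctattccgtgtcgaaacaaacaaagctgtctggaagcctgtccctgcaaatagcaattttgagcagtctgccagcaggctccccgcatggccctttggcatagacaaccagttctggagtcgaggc
Fat3, chr9:16345324-16345523: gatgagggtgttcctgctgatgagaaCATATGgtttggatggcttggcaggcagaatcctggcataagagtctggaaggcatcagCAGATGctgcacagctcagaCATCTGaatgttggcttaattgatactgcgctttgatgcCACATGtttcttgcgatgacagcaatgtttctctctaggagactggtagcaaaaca
Pcdh15, chr10:73930885-73931084: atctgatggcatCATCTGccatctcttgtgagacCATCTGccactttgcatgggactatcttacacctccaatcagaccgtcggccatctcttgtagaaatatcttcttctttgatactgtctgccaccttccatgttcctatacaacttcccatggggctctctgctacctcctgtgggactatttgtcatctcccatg
Ctnna2, chr6:77979700-77979793: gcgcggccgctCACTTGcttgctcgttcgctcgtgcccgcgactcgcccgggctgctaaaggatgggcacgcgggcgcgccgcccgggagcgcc
Ctnnd2, chr15:30887613-30887812: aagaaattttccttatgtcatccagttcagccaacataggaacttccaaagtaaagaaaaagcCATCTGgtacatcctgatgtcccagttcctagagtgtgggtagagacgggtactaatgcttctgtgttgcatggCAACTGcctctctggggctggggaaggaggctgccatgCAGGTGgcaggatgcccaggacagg
Pcdh7, chr5:57719128-57719327: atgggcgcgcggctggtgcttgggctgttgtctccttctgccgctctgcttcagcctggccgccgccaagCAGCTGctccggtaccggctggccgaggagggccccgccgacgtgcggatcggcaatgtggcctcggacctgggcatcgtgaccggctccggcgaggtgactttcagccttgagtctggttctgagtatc
Fat3, chr9:16029149-16029348: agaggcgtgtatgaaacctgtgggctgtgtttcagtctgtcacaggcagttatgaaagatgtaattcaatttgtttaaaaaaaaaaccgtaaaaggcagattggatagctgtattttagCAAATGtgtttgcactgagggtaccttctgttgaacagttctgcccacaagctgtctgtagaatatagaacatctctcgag
Celsr2, chr3:108409898-108410097: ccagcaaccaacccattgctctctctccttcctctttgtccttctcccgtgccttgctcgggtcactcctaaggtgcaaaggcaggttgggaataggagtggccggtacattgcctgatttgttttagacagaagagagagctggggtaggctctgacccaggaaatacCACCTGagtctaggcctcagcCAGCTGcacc

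The intronic sequences differed visibly in how E-boxes were arranged. The Cdh13 site, the highest scoring of the 10, held a single CACATG within its central 200 bp, whereas the Fat3 site in intron 2 held 4 E-boxes and the Ctnnd2 site held 3. The central sequence of Pcdh7 lies at the start of its coding sequence and carries 1 CAGCTG, and that of Ctnna2 is GC-rich promoter sequence with 1 CACTTG. In the printed 200 bp of Pcdh15 the motif CATCTG, which is CAGATG read on the other strand, occurs in 2 places. Shifted against itself by 22 bp, this sequence matched at 48.9% of bases, a level that 5.55% of all shared sites reached at their own best shift, while the median over all shared sites was 36.4%. Whether repeated sequence affected the mapping of reads there was not tested.

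Peaks of at least 1 antibody lay at 24 of the 34 genes, against 35.2% of all protein-coding genes. Antibody 1 had peaks at 15 of them (44.1%, against 15.4% of all protein-coding genes), antibody 2 at 23 (67.6%, against 33.2%) and antibody 3 at 8 (23.5%, against 11.1%), with a mean of 15.3 genes (SD 7.51, n = 3 antibodies). A shared site lay at 7 genes, or 20.6% (95% Wilson interval 10.3% to 36.8%), against 7.49% of all protein-coding genes. The interval covers counting error only. These higher shares go together with the length of the genes, since the median gene body was 149 kb here and 17.4 kb over all protein-coding genes.

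Gene length was therefore taken into account by setting each gene beside the 200 other protein-coding genes nearest to it in length. Summed over the 34 genes, the means of these genes came to 10.99 shared sites, against the 10 observed, a ratio of 0.910. From the shares among genes of similar length, 7.06 of the 34 genes would hold a shared site, against the 7 that did. For single antibodies the ratio was 1.19 with antibody 1 (32 peaks against 26.84), 1.19 with antibody 2 (63 against 53.06) and 0.884 with antibody 3 (14 against 15.83), with a mean of 1.09 and an SD of 0.176 over the antibodies. With these settings, the cadherin genes as a whole held about as many shared sites as other genes of their length. The ratio fell to 0.645 when only genes with a peak were used for comparison, and to 0.196, from 1 site, when every peak had to score at least 100. The first of these alternatives kept all 34 genes, including the 10 without a peak, so a lower ratio follows from its construction. The comparison is a description without a test, because there was 1 library per antibody and genes are not replicates. For the 7 longest (Cdh12, Cdh13, Cdh18, Pcdh9, Pcdh15, Ctnna2 and Ctnnd2) few longer genes exist, and the same 200 genes of 523 to 4435 kb served for all of them.

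**Figure D1:**
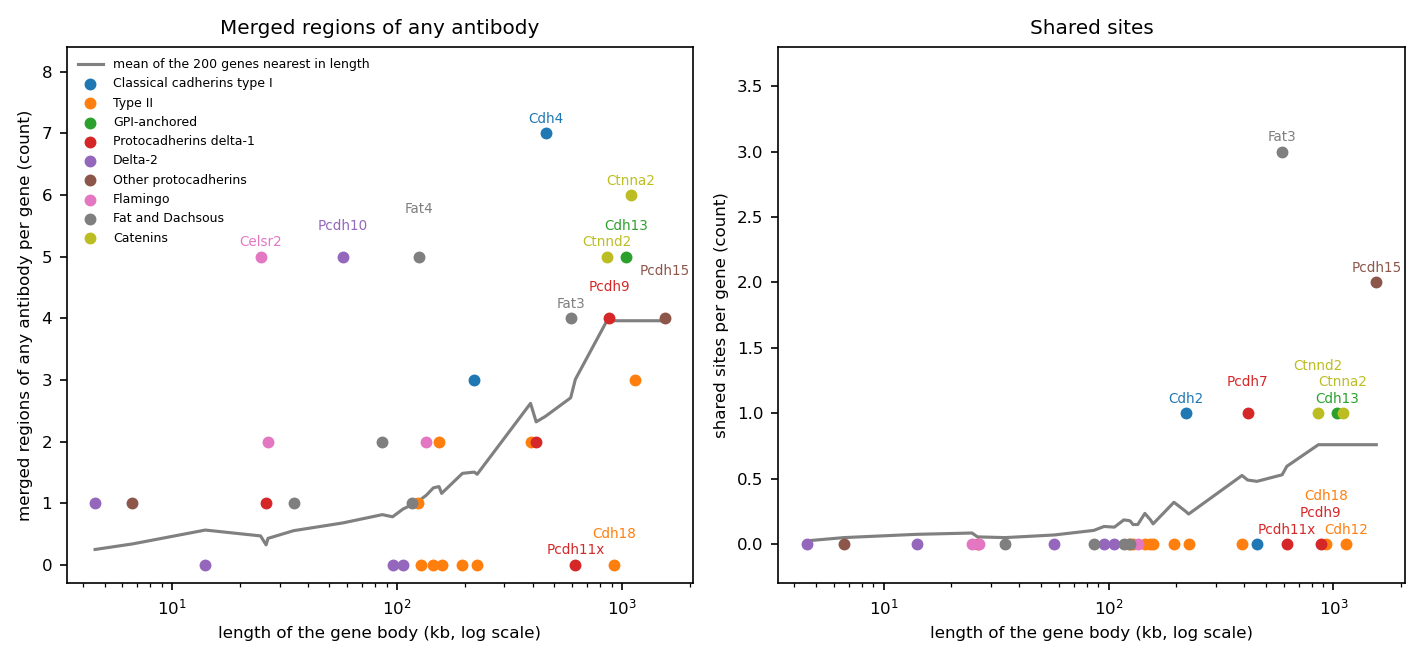
Each point is 1 of the 34 genes, placed by the length of its gene body in kb on a log scale, with the number of merged regions of any antibody (left) or of shared sites (right) on the vertical axis, and the grey line is the mean of the 200 protein-coding genes nearest in length. Shared sites begin at Cdh2, 220 kb long, and Fat3 with 3 sites stands above its line, while Cdh18 and Pcdh11x lie at 0 in both panels.

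The shared sites were counted by length class. None of the 7 genes under 50 kb had one (5.45% of all genes in this class did), and none of the 13 genes of 50 to 200 kb (11.1%). Of 5 genes of 200 to 500 kb, 2 had a shared site (24.2%), and of 9 genes of 500 kb and over, 5 had one (38.7%). The shortest gene with a shared site was Cdh2 with 220 kb.

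**Figure D2:**
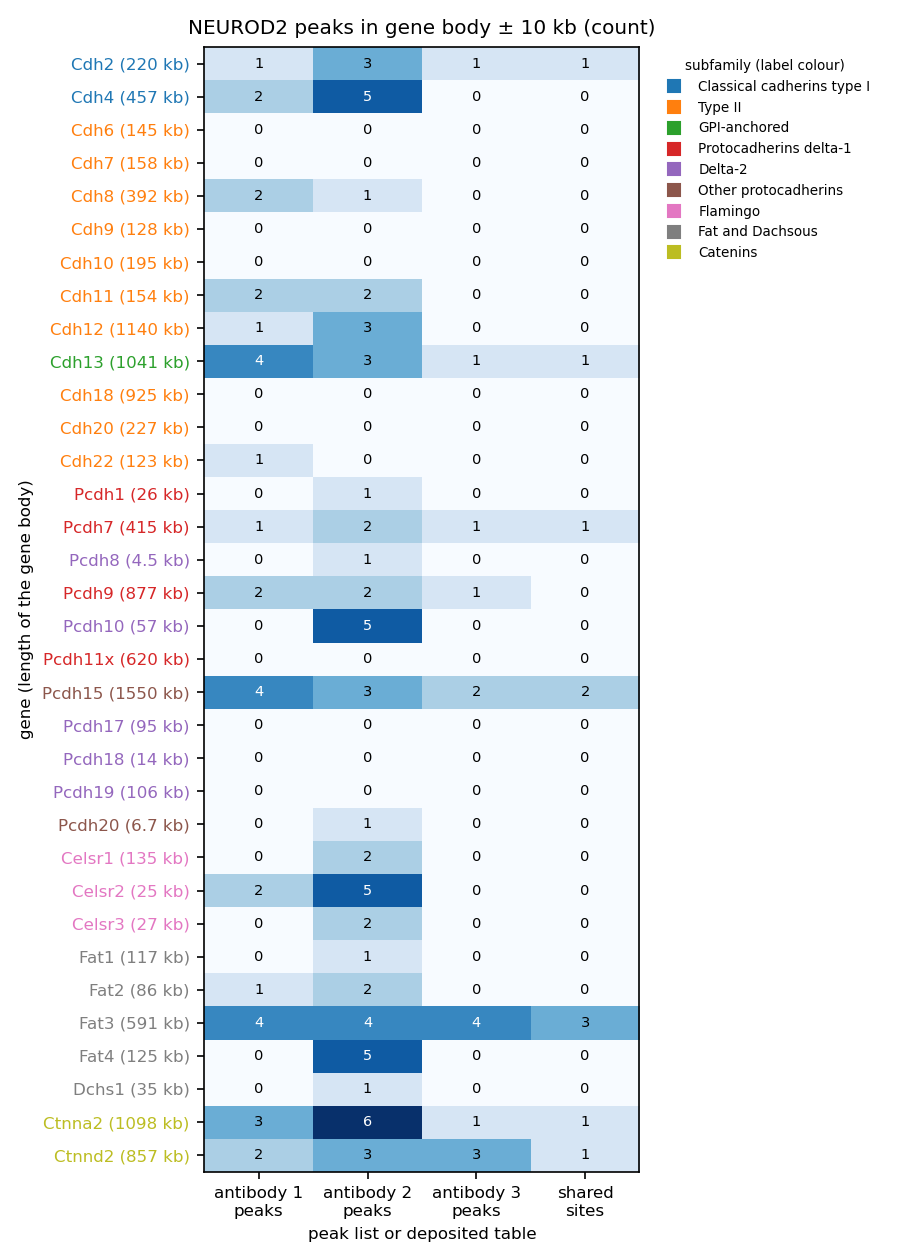
Number of peaks of antibodies 1, 2 and 3 and of deposited shared sites in the gene body and 10 kb on either side, 1 row per gene with the length of its gene body and 1 column per list, darker for higher counts. The row of Fat3 is filled in every column (4, 4, 4 and 3), Celsr2, Pcdh10 and Fat4 have 5 peaks of antibody 2 but no shared site, and 10 rows are at 0 throughout.

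The peaks of all antibodies merged into 74 separate regions at these genes. Antibody 2 alone made 39 of them, or 52.7%, close to its 52.2% of all merged regions in the genome. Antibodies 1 and 2 without antibody 3 made 14, or 18.9% (15.7% of all), and all antibodies together made 10, or 13.5% (16.5% of all). Antibody 1 alone gave 8 regions, or 10.8% (7.85% of all), and antibody 3 alone gave 3, or 4.05% (3.61% of all). No region was shared by antibodies 1 and 3 alone or by 2 and 3 alone, classes that made up 0.253% and 3.85% of all merged regions. Regions of a single antibody were mostly weak, with a median score of 64.3 and 44 of 50 below 100. The score is minus 10 times the log10 of the p that MACS computed for a peak, and 50 was the lowest in the lists. Depth cannot be read from these lists, and both the number and the score of peaks rise with depth.

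By position, 49 of the 74 regions lay in introns, 16 in promoters (the midpoint was at most 1000 bp from a transcription start site, or TSS, of the gene), 4 in exons, 4 upstream and 1 downstream. Of the 10 shared sites, 7 were intronic and 3 lay in promoters, while over all shared sites 34.1% were intronic, 25.2% lay in promoters and 35.9% were intergenic, a class that the windows around genes mostly leave out. The region downstream of Celsr3 was the only one within 1000 bp of a coding TSS of another gene, 381 bp from that of Slc26a6.

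The scores of the shared sites give a measure of how firmly each was detected, and most were modest. The median deposited score, which is the sum of the peak scores of all antibodies in a site, was 397 at these genes and 573 over all 2071 shared sites, and 7 of the 10 lay below the latter. Antibody 3 gave the lowest score at 8 of the 10 sites, as at 81.4% of all shared sites. Antibody 1 gave the highest score at 4 of the 10, against 13.7% of all shared sites, and antibody 2 at the other 6. Only the Cdh13 site had a peak scoring at least 100 with every antibody.

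**Figure D3:**
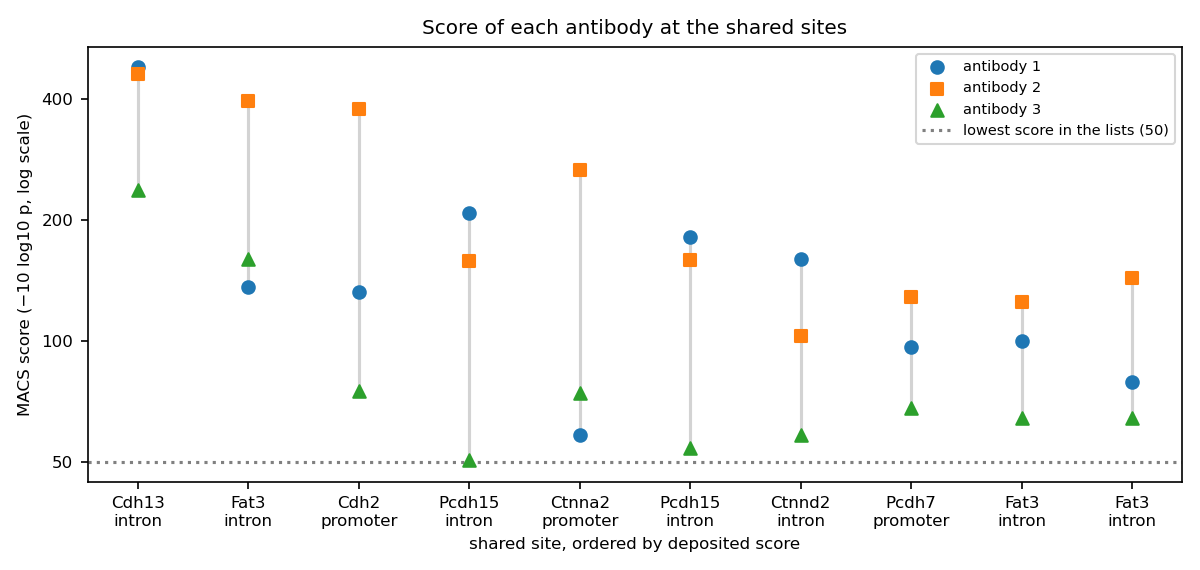
Scores of antibody 1 (circles), antibody 2 (squares) and antibody 3 (triangles) at the 10 shared sites, summed where an antibody had more than 1 peak in a site, on a log axis with the lowest peak score of 50 as a dotted line. Cdh13 stands highest with every antibody, and the triangles of Pcdh15, Ctnnd2, Pcdh7 and the lower Fat3 sites lie near the dotted line.

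Among the classical cadherins of type I, Cdh2 was bound at its promoter. Its shared site at chr18:16807973-16809045 covered exon 1, with its midpoint 737 bp into the gene and 47 bp from an annotated TSS. Antibody 1 scored 133, antibody 2 scored 378 and antibody 3 scored 75.2 there, which gave rank 997 of 2071. Antibody 2 alone added 2 more regions around the same promoter, with scores of 99.1 and 82.8. Cdh4, which encodes R-cadherin, had the most regions of the 34 genes, 7 against a mean of 2.41 in genes of its length, and 7.5% of those genes had at least as many. All 7 lay in introns, 2 from antibody 1 (55.8 and 55.0) and 5 from antibody 2 (52.5 to 114), and no region was seen by more than 1 antibody.

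The type II cadherins, which mark subsets of cortical and other neurons, had the fewest regions for their length of all the subfamilies. None of the 10 had a shared site, against a summed mean of 3.50 in genes of similar length, and they held 8 regions against 19.2, a ratio of 0.416. Peaks were counted 6 times with antibody 1, 6 times with antibody 2 and 0 times with antibody 3. Cdh6, Cdh7, Cdh9, Cdh10, Cdh18 and Cdh20 had no peak of any antibody. The absence in Cdh18 concerns a gene of 925 kb, and 16.5% of the 200 genes nearest to it in length had no region either. For the other 5, between 37.0% and 45.0% of genes of similar length were also without one. A gene without a peak held no stretch past the authors' threshold at the depth of these libraries, and weaker binding would not appear in the lists.

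Where type II genes had peaks, antibodies 1 and 2 shared 4 of the 8 regions. At Cdh11, or OB-cadherin, a promoter region 802 bp from the start scored 74.5 with antibody 1 and 179 with antibody 2, the highest of the group, and a region in intron 1 scored 50.4 and 160.1. At Cdh8 a region 1138 bp upstream scored 53.5 and 144, and it lay 935 bp from the start of the noncoding gene A330008L17Rik. Cdh12 had 1 such region in intron 2 (52.4 and 107) and 2 more of antibody 2 alone (58.4 and 68.0). The single region of Cdh22, in intron 1, came from antibody 1 with a score of 73.3.

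Cdh13, or T-cadherin, lacks a cytoplasmic tail and is held in the membrane by a lipid anchor. Its site at chr8:119158535-119159161, in intron 7 and 875115 bp from the start of the gene, had the highest deposited score at these genes, with rank 322 of 2071. The scores were 482 with antibody 1, 463 with antibody 2 and 238 with antibody 3. A region in intron 2 was seen by antibodies 1 and 2 (82.4 and 170.4), and the other 3 regions were weak peaks of 1 antibody (52.3 to 62.4). With a shared-site count of 1, Cdh13 was not unusual for a gene of 1041 kb, since 40% of genes of similar length had at least 1.

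The protocadherins of the delta-1 group carried 1 shared site, against a summed mean of 1.90 in genes of similar length, and 7 regions against 9.615. Pcdh7 was bound at chr5:57718896-57719559, over exon 1 and 131 bp from a TSS, with 96.5, 129 and 68.2 for antibodies 1, 2 and 3 and rank 1874. A region of antibody 2 alone (69.3) followed within the same exon. Pcdh9 had 4 intronic regions, of which 1 in intron 3 was shared by antibodies 1 and 2 (86.3 and 160.1). Pcdh1 had 1 weak promoter region of antibody 2 (67.9), and Pcdh11x, 620.4 kb long, had no peak, as was the case for 19.5% of genes of its length.

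In the delta-2 group all 6 peaks came from antibody 2, against a summed mean of 2.90 in genes of similar length. For antibodies 1 and 3 these means were also low, 1.11 and 0.720. No gene of the group had a shared site, against a summed mean of 0.435. Pcdh10, an axon growth protocadherin, had 5 regions around its first exon, of which 2 lay in the promoter, with scores of 63.7 to 82.2. Only 2.00% of genes of its length had 5 or more regions, where the mean was 0.680. The 2 promoter regions lay 661 and 244 bp from the TSS of Pcdh10, and nearer to that of the noncoding gene 2610316D01Rik (468 and 51 bp). Pcdh8, whose product arcadlin is induced by neuronal activity, had 1 region in exon 1 with a score of 57.9. Pcdh17, Pcdh18 and the X-linked epilepsy gene Pcdh19 had no peak of any antibody. For each of them, at least 47% of genes of similar length had no region either.

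Pcdh15 is best known as a component of the tip links of hair cells, and it held 2 of the shared sites. The higher scoring one lay in intron 1 at chr10:73930788-73931182, 831643 bp into a gene of 1550.4 kb, and scored 208, 158 and 50.7 with antibodies 1, 2 and 3 (rank 1474). The other lay close to it in the same intron and scored 182, 159 and 54.1 (rank 1553). With antibody 3 both were barely above the lowest score in its list. A separate region in the same intron was seen by antibodies 1 and 2 (54.1 and 126). Of genes of similar length, 14.0% had at least 2 shared sites. Pcdh20, the other protocadherin outside the delta groups, had 1 promoter region of antibody 2 (61.2).

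The 3 Flamingo genes had no shared site, against a summed mean of 0.290 in genes of similar length, but many regions for their size. They held 9 regions against a summed mean of 2.03 in genes of similar length, with 9 peaks of antibody 2, 2 of antibody 1 and 0 of antibody 3. Celsr2 accounted for 5 of them in a gene of 24.7 kb, and 0% of the 200 genes nearest in length had as many. Its strongest region lay in intron 1 (chr3:108409656-108410339), with 197 for antibody 1 and 313 for antibody 2. Next came a region 7611 bp upstream (119 and 247) and one at the promoter with antibody 2 alone (174). Celsr3 had 2 regions of antibody 2, 1 of them at the promoter (134), and Celsr1 had 2 weak ones (83.0 in intron 1 and 52.1 at the promoter).

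**Figure D4:**
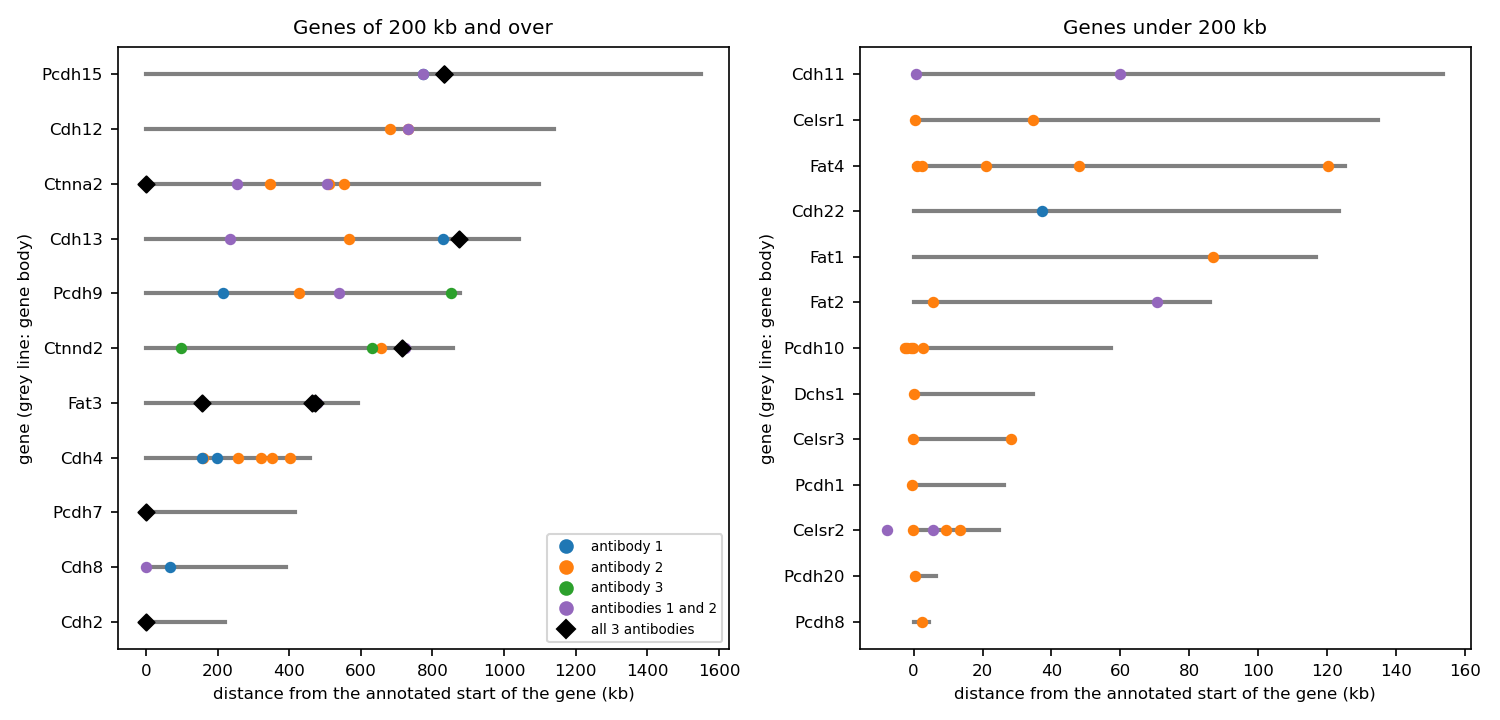
Position of the merged regions along the 24 genes with a peak, in kb from the annotated start of each gene, with genes of 200 kb and over on the left and shorter genes on the right, and the colour for the antibodies that saw a region (black diamonds for all 3). Black diamonds appear on the left only, at the start of Cdh2, Pcdh7 and Ctnna2 and far inside Pcdh15, Cdh13, Ctnnd2 and Fat3, and the shorter genes on the right carry mainly regions of antibody 2.

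Fat3, which shapes dendrites of retinal neurons, had more shared sites than any other gene of the list. The strongest was at chr9:16345231-16345616 in intron 2, with 136 for antibody 1, 397 for antibody 2 and 160.2 for antibody 3, where the last is the sum of 2 peaks of which the higher scored 93.9 (rank 781). The other sites lay 6950 bp apart, in intron 6 at chr9:16029067-16029430 (99.97, 125 and 64.3, rank 1884) and in intron 4 at chr9:16036381-16036720 (79.1, 144 and 64.4, rank 1892). Another region in intron 6 was seen by antibodies 1 and 2 (61.4 and 118). At genes of similar length the mean was 0.530 shared sites, and 5% had 3 or more.

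The other Fat and Dachsous genes had peaks but no shared site, and between 5% and 15% of genes of similar length had one. Fat4 had 5 regions of antibody 2, led by one in its promoter and first exon (204) that also lay 321 bp from the start of an antisense transcript, and 1.5% of genes of its length had 5 or more. Fat2, a protein of cerebellar granule cells, had a region in intron 18 that antibody 1 scored at 166 and antibody 2 at 128. Fat1 had 1 region of antibody 2 in intron 9 (149), 212 bp from the start of an antisense transcript. Dchs1, the partner of Fat4, had 1 at its promoter (91.5). Together, the Celsr, Fat and Dachsous genes held 22 regions against 8.11 in genes of similar length, from 7 peaks of antibody 1 against 3.33, 22 of antibody 2 against 7.27 and 4 of antibody 3 against 1.99. The 4 peaks of antibody 3 were all at Fat3.

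Both catenins had a shared site, 2 in all against a summed mean of 1.52 in genes of similar length, of which 40% had at least 1. Ctnna2 encodes αN-catenin, the neuronal link between cadherins and actin, and its site at chr6:77979261-77980127 was centred 5 bp from the TSS, with 58.3, 267 and 74.1 for antibodies 1, 2 and 3 (rank 1535). A region in intron 4 that antibody 3 missed scored higher with antibody 2 (308.5) and antibody 1 (104). Another such region lay in intron 8 (107 and 94.2), where the nearest coding TSS, 232685 bp away, was that of the synaptic adhesion gene Lrrtm1. Ctnnd2 encodes δ-catenin of the dendritic spine, and its site at chr15:30887552-30887873 in intron 14 scored 159.8, 103 and 58.5 (rank 1799). The same intron held a weaker region of antibodies 1 and 2 (64.9 and 62.0), and antibody 3 alone gave 2 further peaks in introns 1 and 10 (53.8 and 60.7). Together the catenins held 11 regions against 7.92 in genes of similar length.

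The protocadherins and the Cdh genes were compared per unit of sequence. The 11 protocadherins had 0.0751 shared sites per 100 kb (3 sites) and the 13 Cdh genes had 0.0359 (2 sites), a ratio of 2.09. The same ratio taken over the peaks of single antibodies was 0.751 with antibody 1, 1.23 with antibody 2 and 2.79 with antibody 3 (mean 1.59, SD 1.07, n = 3 antibodies), so the antibodies did not share a direction. The ratio of shared sites fell to 0.996 when antibody 3 was left out, to 1.36 with 50 kb on either side of the gene, and to 1.39 when the neighbouring Pcdh15 sites were counted as 1, an alternative chosen after the values were seen. It was 0 when every peak had to score at least 100, where the only site left was that of Cdh13. The Celsr, Fat and Dachsous genes had 0.231 shared sites per 100 kb, all of them in Fat3.

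Promoter binding was seen mostly by antibody 2. It had a promoter region at 12 of the 34 genes (35.3%, against 18.7% of all protein-coding genes), antibody 1 at 4 (11.8%, against 5.67%) and antibody 3 at 3 (8.82%, against 4.64%). All 16 promoter regions were among those of antibody 2, with scores of 52.1 to 378. Those of antibody 3 were the shared sites of Cdh2, Pcdh7 and Ctnna2, and antibody 1 added Cdh11. These shares take no account of the number of TSSs per gene.

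The E-box content was compared with flanking sequence, windows of 200 bp starting 2000 bp from each edge of a site. The palindromic pattern CANNTG reads the same on both strands, so each occurrence was counted once. The middle 200 bp of the 10 shared sites had a mean of 2.50 E-boxes (SD 2.37, n = 10 sites) and their flanks one of 0.750, a ratio of 3.33, against 2.45 and 1.15, a ratio of 2.13, over all shared sites. At least 1 E-box stood in 9 of the 10 centres (89.3% of all shared sites, and 66.2% of all flanks). The 7 intronic centres held 3.29 on average, and the 3 promoter centres 0.667, from 0 at Cdh2 to 1 at Pcdh7 and Ctnna2. Over all shared sites the means were 2.75 for introns and 1.52 for promoters. The central 200 bp are a smaller part of the promoter sites (664 to 1073 bp long) than of the intronic ones (322 to 395 bp, with 627 bp at Cdh13). Over the whole site, Cdh2 held 1 E-box, Pcdh7 held 2 and Ctnna2 held 8. Outside Pcdh15, the intronic sites held 2 to 6, with 5 at Cdh13. The Pcdh15 sites weighed heavily in the values of the centres. Without them, in an alternative chosen after the values were seen, the mean was 1.88 in the centres and 0.875 in the flanks (n = 8 sites), a ratio of 2.14 beside the 2.13 of all shared sites, and the mean of the intronic centres was 2.60, below that of all intronic sites. The median GC content of the centres was 50.5% in the introns and 72.5% in the promoters, and its part in these counts was not tested. No test was made of the E-box counts, since sites of the same libraries are not replicates.

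**Figure D5:**
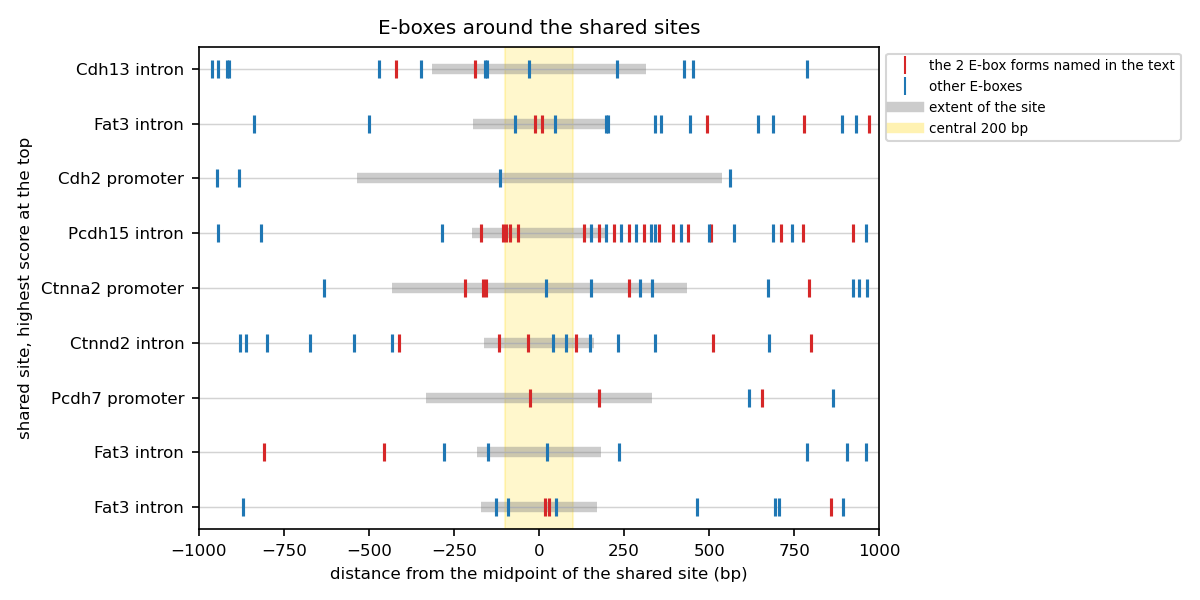
Position of every E-box within 1000 bp of the midpoint of 9 of the 10 shared sites (1 of the Pcdh15 sites is not drawn), in bp, with the extent of each site in grey, the central 200 bp in yellow, the forms CAGATG and CAGCTG in red and other forms in blue. E-boxes are dense beside the Pcdh15 site and sparse over the promoters of Cdh2 and Pcdh7.

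The form CAGATG made up 11 of the 25 E-boxes in these centres, and 5 of 15 without the Pcdh15 sites, against 33.4% of the E-boxes in the centres of all shared sites. CAGATG, on either strand, was present in 5 of the 10 centres, all intronic (54.7% of all shared sites), and CAGCTG in 1 of the 10, at Pcdh7 (42.0%). The Cdh13 site held neither in its central 200 bp. The 5 centres with CAGATG were those of the Fat3 sites in introns 2 and 4, of Ctnnd2 and of the Pcdh15 sites.

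Regions that antibodies 1 and 2 shared without antibody 3 also held E-boxes. There were 14 of them in 11 genes, with scores of 50.4 to 197 for antibody 1 and 62.0 to 313 for antibody 2, and antibody 2 was higher in 11. Their centres held 3.00 E-boxes on average, against 0.893 in the flanks, and all 14 held at least 1. Over all regions of this class in the genome the mean was 2.44, and 90.8% held at least 1. CAGATG stood in 10 of the 14 (71.4%, against 52.7% of all regions of the class), CAGCTG in 8 (57.1%, against 41.3%) and 1 or both in 13 (92.9%, against 76.1%). The 39 regions of antibody 2 alone had a mean of 2.08 in the centre and 1.04 in the flanks, against 1.74 and 1.13 over all regions of that class. When only antibodies 1 and 2 were required, the number of genes with a site rose from 7 to 13, by adding Cdh8, Cdh11, Cdh12, Pcdh9, Celsr2 and Fat2, and the number of sites from 10 to 24. Over the whole genome the same change raised the number of sites from 2071 to 4073, and the ratio to genes of similar length became 1.15. When every antibody had to reach a score of 100, the Cdh13 site alone was left of the 10 at these genes. Over the whole genome this threshold left 954 sites, against 2071 in the deposited table.

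Cadherin-related genes outside the list were also counted. Of 32 further cadherin, calsyntenin, desmosomal and catenin genes, with a median length of 44.6 kb, 10 had a peak of any antibody (31.2%, against 35.2% of all protein-coding genes), where the shares of their length classes add up to 13.3. The 22 without a peak included Cdh1, which encodes the epithelial E-cadherin, the endothelial Cdh5 and all 5 desmosomal Dsc and Dsg genes examined, but also the neuronal calsyntenin Clstn1 and Ctnnd1, which encodes p120-catenin, while Cdh3, the epithelial P-cadherin, had 1 peak of antibody 1. A shared site lay at Clstn2, a synaptic calsyntenin (2 sites and 7 regions in 588.8 kb), and at Pkp4, a relative of δ-catenin (1 site and 3 regions in 194 kb), which is 2 of 32, where the shares of their length classes add up to 3.35. Ctnnb1, which encodes β-catenin, had 1 peak of antibody 2. Cdh23, the tip link partner of Pcdh15, had 2 peaks of antibody 2. The clustered protocadherin locus, chr18:36930184-37841873 with 57 genes, held 5 regions, of which 1 was a shared site. This locus of 912 kb was not compared with other sequence of its length.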

How the data were processed

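NEUROD2 ChIP-Seq of mouse cerebral cortex at postnatal day 0 was analysed for 3 antibodies, which were treated as the replicates of 1 group. Reads had been aligned by the authors with Bowtie (GRCm38, mm10), and MACS had been run on every antibody against the GFP library. Each deposited peak has a score, which is the log10 of the MACS p times 10 with its sign reversed, and a shared site in the deposited table carries the summed scores of its peaks. The libraries of GFP and of input DNA were not used here.

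Peaks sharing at least 1 bp were merged (19562 peaks into 12637 regions), and 2051 of the 2071 deposited sites had the limits of a merged region. Genes, TSSs and introns came from GENCODE M21, in which all 34 genes were found, and introns were numbered in the longest coding transcript. Sequences came from the RefSeq copy of GRCm38, and those of 3 shared sites are not reported here. Antibody 1 gave 5202 peaks, antibody 2 gave 11196 and antibody 3 gave 3164. The read depth is unknown from these files, and the Wilson interval covers counting error over genes only. No test between groups was possible with 1 library per antibody. The 34 genes, the subfamilies and the other lists were chosen with earlier results of these data known. Every gene of the list was named, each shared site was given with the score of every antibody, and genes without one were described by their highest scoring peaks. Alternatives changed the window, the score threshold, the table of sites, the genes of similar length and the E-box windows, and left out each antibody in turn. Python 3.11.15, numpy 2.4.6, pandas 2.3.3, pysam 0.24.0, matplotlib 3.10.9 and bedtools 2.31.1 were used.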

Additional observations from a re-analysis of the deposited data

How the results depend on the processing

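Of 48 alternative values, 32 stayed within their limits, which were 1.5 times for counts and the SD over antibodies for ratios. When every peak had to reach a score of 100, 1 gene and 1 shared site remained, against 954 shared sites over the whole genome. The mean number of genes with a peak fell from 15.3 to 8.67. These counts fall by construction, as fewer peaks enter. The ratio of shared sites to those of genes of similar length fell from 0.910 to 0.196. The ratio of protocadherins to Cdh genes fell to 0. The threshold applied to the comparison genes too, and the cause of the lower ratios was not tested. With comparison genes limited to those with a peak, the ratio to genes of similar length was 0.645. Leaving out each antibody in turn gave 7 to 13 genes, 10 to 24 sites, ratios to genes of similar length of 0.758 to 1.15, ratios of protocadherins to Cdh genes of 0.996 to 2.09, and E-box ratios of 3.12 to 4.14, and the highest counts came without antibody 3. With 50 kb on either side of the gene, Cdh22, Pcdh8 and Fat1 were added, giving 10 genes and 14 sites. The E-box ratio of 3.33 became 2.91 in the central 400 bp, 3.12 with flanks 5000 bp away and 4.0 around the stretch covered by every peak, and the cause was not tested. In alternatives chosen after seeing the data, it was 2.14 without the Pcdh15 sites, and the ratio of protocadherins to Cdh genes was 1.39 with these sites counted as 1. No paired analysis was possible because there is 1 group of NEUROD2 libraries and none to pair it with. The lists hold no read counts, so depth cannot be weighed against the score, and a gene without a peak is below the threshold, not shown to be unbound.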
